A study of Mus musculus with 15 samples.

Results

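Gene expression in the left ventricle was compared between mice with 2 mutated copies of Rbm20 and mice with 1, within a single mutant line. The line carries the serine-to-glycine change S639G and is called the G-line by the submitters. The comparison used 6 of the 15 samples of the series: the 3 libraries titled G-line HOM (homozygous, genotype S639G -/- in the labels) and the 3 titled G-line HET (heterozygous, S639G +/-). All were total RNA from the left ventricle of C57BL/6 mice aged 2 months, and all carried at least 1 mutated allele. The samples were taken by their titles alone. The series studies how Rbm20 mutations act in cardiac remodelling, and this comparison asks what differs between hearts with a second mutated copy and hearts with 1. The WT libraries enter no test below. The level in WT replicate 1 is given beside some genes as a value from 1 library. Since the labels do not tie replicates to separate animals, a p-value here speaks only of the scatter among the 6 samples, and that scatter may be technical.

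RBM20 is a nuclear RNA-binding protein of striated muscle that represses the use of exons in titin, the giant spring protein of the sarcomere, and in transcripts for calcium-handling proteins such as Camk2d and for Ldb3, a Z-disc protein. Its short arginine- and serine-rich stretch is a hot spot for mutations that cause dilated cardiomyopathy, in which the left ventricle widens, and mutant protein is known to gather in the cytoplasm. The mutated residue lies in that stretch. The reference coding sequence of mouse Rbm20 around it is shown because the 2 groups differ in how many copies carry a change there. It spans codons 630 to 651 of transcript Rbm20-203, in exon 9 of 14, on the plus strand of GRCm38 at chr19:53843224-53843289 (GENCODE annotation), and the capitals mark the serine codon 639.
Rbm20 codons 630 to 651: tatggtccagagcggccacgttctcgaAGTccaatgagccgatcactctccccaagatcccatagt

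The 6 libraries held between 20324529 and 29436407 counts. Of 40174 gene symbols, 16615 passed the filter on low counts and were tested. No 2 of the 6 columns were identical. Mitochondrial ribosomal RNA took 15.4% to 16.7% of counts in HET and 10.8% to 13.5% in HOM, so the groups did not overlap in this share. The results of a fit without mitochondrial genes are given with the other settings below. The part of this share was not tested otherwise. Summed over 16 cardiomyocyte markers, the level was 63249 to 71846 CPM (counts scaled to library size) in HET and 50152 to 55721 CPM in HOM, so the heart muscle markers were abundant in every library. In bulk tissue, fewer cells of a type and less RNA per cell cannot be told apart. HOM replicate 1 stood apart in some atrial, clock, mesothelial and fat cell genes, described at the end with the counts obtained without it.

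With a second mutated copy, 2431 of the 16615 genes tested changed (14.6%), of which 962 were higher (5.79%) and 1469 lower (8.84%) in HOM. A gene counts as called here at an adjusted p under 0.05 in edgeR's quasi-likelihood test. Of the called genes, 599 differed at least 2-fold in the fitted value (3.61% of all tested), with 293 higher (1.76%) and 306 lower (1.84%). The 3 HET and 3 HOM libraries did not overlap in 35.8% of all genes tested and in 2428 of the 2431 called genes. The median log2 fold change of all genes tested was 0.02. A percentage after the counts of a list below is its share called in either direction, to be read beside the 14.6% of all genes. Where a list had 5 or fewer calls in a direction, most of these are named, and those outside the naming rule were picked after their values were seen. The rule took the genes with extreme fold changes or adjusted p only where the groups did not overlap, so that separation was fixed by the choice in them. Since nearly all called genes lacked overlap, its absence in called list members adds nothing to their calls. The number of calls was 1266, 1181 and 1337 without HET replicates 1, 2 and 3, and 1965, 1056 and 3458 without HOM replicates 1, 2 and 3. Each of these fits has 5 libraries, and they called 468, 348, 464, 780, 358 and 1485 genes higher in the same order.

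**Figure D1:**
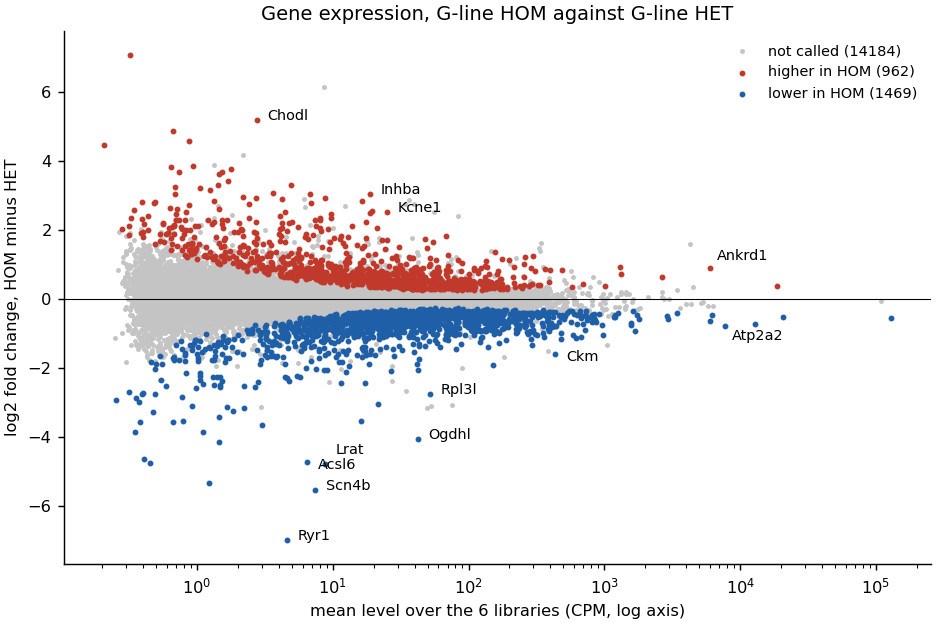
Log2 fold change of every tested gene, HOM minus HET, against its mean level over the 6 libraries in CPM on a log axis; each point is 1 gene. Red points were called higher (962), blue points lower (1469), and Ryr1 at -6.97 and Chodl at 5.19 lie near the extremes of the named genes.

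The level of the mutated gene itself did not pass the test. Rbm20 stood at 410.0, 399 and 372 CPM in HET replicates 1, 2 and 3 and 370.1, 427 and 382 CPM in HOM replicates 1, 2 and 3. The groups overlapped (log2 fold change -0.0021 ± 0.09 SE, adjusted p = 0.992), and a point mutation of this kind gives no count that would check the genotype labels. Ttn, the titin gene, was at 111128 ± 1360.0 CPM in HET and 107719 ± 4228 CPM in HOM (mean ± SD, n = 3 each), and did not pass the test (log2 fold change -0.04 ± 0.10 SE, adjusted p = 0.815). Total levels of Camk2d (log2 fold change 0.0046 ± 0.10 SE, adjusted p = 0.983), encoding the main calcium/calmodulin-dependent kinase of the heart, and of Ldb3 (log2 fold change -0.23 ± 0.11 SE, adjusted p = 0.18) did not pass the test either. Gene totals carry no information on exon use, which was not analysed here. Casq1, the calsequestrin of fast skeletal muscle, was at 334, 256 and 244 CPM in HET replicates 1, 2 and 3 and 267, 266 and 368 CPM in HOM replicates 1, 2 and 3. Its groups overlapped (log2 fold change 0.11 ± 0.16 SE, adjusted p = 0.69), while WT replicate 1 held 9.31 CPM. HET and HOM libraries alike thus stood far above that WT library in Casq1.

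Genes of fuel use fell together. Of 46 genes of fatty acid uptake and oxidation, 31 fell and 0 rose (67.4% called), with a median log2 fold change of -0.53 against 0.02 for all genes tested. The steepest was Acsl6, an acyl-CoA synthetase that activates long-chain fatty acids, at 12.5, 11.5 and 13.02 CPM in HET replicates 1, 2 and 3 and 0.281, 0.142 and 1.04 CPM in HOM replicates 1, 2 and 3 (log2 fold change -4.71 ± 0.45 SE, adjusted p = 0.000869). Every HOM library lay below every HET library by a wide margin, and WT replicate 1 held 9.66 CPM. Acacb, which makes the malonyl-CoA that restrains fatty acid entry into mitochondria, was at 404, 372 and 326 CPM in HET and 174, 188 and 187 CPM in HOM (log2 fold change -1.01 ± 0.10 SE, adjusted p = 0.00049). Etfb, a subunit of the flavoprotein that takes electrons from the oxidation steps, was at 307, 299 and 298 CPM in HET and 156, 178 and 170.0 CPM in HOM (log2 fold change -0.84 ± 0.09 SE, adjusted p = 0.000568). Hsdl2, a peroxisomal and mitochondrial dehydrogenase-like protein, was at 167, 174 and 171 CPM in HET and 69.3, 74.5 and 97.5 CPM in HOM (log2 fold change -1.09 ± 0.12 SE, adjusted p = 0.000874). Groups did not overlap in any of these genes, as in nearly all called genes. Fabp3, the fatty acid carrier of heart muscle, was at 1895 ± 73.8 CPM in HET and 1519 ± 151 CPM in HOM (mean ± SD, n = 3 each, adjusted p = 0.068), and Hadhb, a subunit of the trifunctional protein, at 1255 ± 68.4 CPM in HET and 886 ± 215 CPM in HOM (mean ± SD, n = 3 each, adjusted p = 0.0656). Cd36, the main fatty acid transporter, was at 1354, 1507 and 1419 CPM in HET and 1071, 1029.7 and 1129.9 CPM in HOM (log2 fold change -0.41 ± 0.09 SE, adjusted p = 0.0191). With HET replicates 1, 2 and 3 and then HOM replicates 1, 2 and 3 left out in turn, 20, 18, 20, 24, 20 and 34 of the 46 were called lower. Cd36 was not called without HET replicate 2 or 3 or HOM replicate 2 (adjusted p from 0.0673 to 0.103).

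All 76 tested nuclear-encoded subunits and assembly partners of the respiratory chain had fold changes below 0, and 38 of them fell (50% called). Their median log2 fold change was -0.41. The 4 with the smallest adjusted p fell by more than this median. Among them, Ndufa8 of complex I was at 183, 174 and 172 CPM in HET and 96.6, 113 and 109 CPM in HOM (log2 fold change -0.73 ± 0.09 SE, adjusted p = 0.00115). Uqcrc1, a core protein of complex III, was at 1024, 865 and 899.7 CPM in HET and 442, 501 and 557 CPM in HOM (log2 fold change -0.89 ± 0.11 SE, adjusted p = 0.00132). Cox8b, the heart and muscle form of a complex IV subunit, was at 239, 246 and 229.9 CPM in HET and 135, 163 and 146 CPM in HOM (log2 fold change -0.69 ± 0.09 SE, adjusted p = 0.0017). Ndufv3 of complex I changed by -0.76 ± 0.11 on the log2 scale, and the HET and HOM libraries did not overlap in any of the 4, as in nearly all called genes. Atp5b, the catalytic subunit of ATP synthase, was at 3903 ± 207 CPM in HET and 3257 ± 505 CPM in HOM (mean ± SD, n = 3 each, adjusted p = 0.194), and Sdha of complex II at 1308 ± 56.9 CPM in HET and 977 ± 172 CPM in HOM (mean ± SD, n = 3 each, adjusted p = 0.053). In the same order of libraries left out, 14, 21, 15, 31, 17 and 66 of the 76 were called lower. HOM replicate 3 was the library whose absence raised the number most.

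In pyruvate oxidation, the TCA cycle and creatine metabolism, 26 of 38 genes fell and 1 rose (71.1% called, median -0.57). Ckm, the cytosolic creatine kinase of muscle that buffers ATP, was at 680.1, 609 and 661 CPM in HET replicates 1, 2 and 3 and 181, 202 and 265 CPM in HOM replicates 1, 2 and 3. All HOM libraries lay below all HET libraries, a 3.01-fold lower fitted level (log2 fold change -1.59 ± 0.14 SE, adjusted p = 0.000306), and WT replicate 1 held 686 CPM. Dlat and Pdhx, the acetyltransferase and the binding protein of the pyruvate dehydrogenase complex, changed by -0.80 ± 0.11 and -0.76 ± 0.10 on the log2 scale (adjusted p = 0.0015 and 0.00132). The kinases that switch this complex off moved in opposite directions. Pdk2 was at 148, 153 and 147 CPM in HET and 65.9, 83.1 and 89.4 CPM in HOM (log2 fold change -0.91 ± 0.11 SE, adjusted p = 0.00123). Pdk3, the 1 gene of the list that rose, was at 4.27, 4.43 and 5.395 CPM in HET and 12.1, 9.84 and 8.12 CPM in HOM (log2 fold change 1.09 ± 0.19 SE, adjusted p = 0.00506), and is named here for that reason, after its values were seen. Ogdhl, a form of 2-oxoglutarate dehydrogenase and among the 10 lowest fold changes that the rule took, was at 85.2, 64.7 and 89.1 CPM in HET replicates 1, 2 and 3 and 2.19, 3.597 and 8.93 CPM in HOM replicates 1, 2 and 3 (log2 fold change -4.06 ± 0.53 SE, adjusted p = 0.00889), with 175 CPM in WT replicate 1. Mdh1 and Idh2, the most abundant members not called, were at a log2 fold change of -0.29 ± 0.13 and -0.22 ± 0.11 (adjusted p = 0.15 and 0.198). With the libraries left out in turn in the order given above, 17, 17, 18, 23, 17 and 31 of the 38 were called lower. Ogdhl was not called without HOM replicate 2 (adjusted p = 0.0502).

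Glycolysis, glucose uptake and glycogen genes changed in the same direction as fat oxidation: 15 of 32 fell and 0 rose (46.9% called, median -0.30). Slc2a4, the insulin-regulated glucose transporter GLUT4, was at 295, 300.5 and 289.9 CPM in HET and 124, 160.4 and 164 CPM in HOM (log2 fold change -0.98 ± 0.11 SE, adjusted p = 0.000925). Gys1, glycogen synthase of muscle, was at 110.2, 95.3 and 99.5 CPM in HET and 55.97, 50.97 and 53.7 CPM in HOM (log2 fold change -0.92 ± 0.09 SE, adjusted p = 0.000404). Pgam2, the muscle form of phosphoglycerate mutase, changed by -0.92 ± 0.09 on the log2 scale and Eno3, the muscle enolase, by -1.05 ± 0.13 (adjusted p = 0.00049 and 0.0012). These 4 genes had no overlap between groups, like nearly all called genes. Aldoa was at a log2 fold change of -0.26 ± 0.11 and Pkm at -0.32 ± 0.11 (adjusted p = 0.152 and 0.0794). Of 26 nuclear receptors and coactivators that control such genes, 10 fell and 0 rose (38.5% called, median -0.33). Rxrg, a retinoid X receptor, was at 28.6, 31.7 and 37.1 CPM in HET and 9.37, 11.3 and 15.2 CPM in HOM (log2 fold change -1.45 ± 0.18 SE, adjusted p = 0.00132). The related retinoid X receptor Rxra changed by -0.49 ± 0.08, Ppara, the fatty-acid-sensing receptor, by -0.51 ± 0.09, and Klf15, a factor that promotes lipid and amino acid use, by -0.70 ± 0.12 on the log2 scale (adjusted p = 0.00447, 0.00466 and 0.00518). Ppargc1a, the coactivator PGC-1alpha, was at a log2 fold change of -0.37 ± 0.14 (adjusted p = 0.101). With single libraries left out in the same order, the glycolysis list had 12, 12, 11, 13, 12 and 15 members called lower and the receptor list 7, 7, 6, 9, 5 and 15. The cardiomyocyte markers moved with all of these lists: 9 of 16 were called lower, 0 higher, with a median of -0.50, and Ckm, Ckmt2, Cox6a2 and Fabp3 belong to both kinds of list. Their part in the energy genes was not tested.

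**Figure D2:**
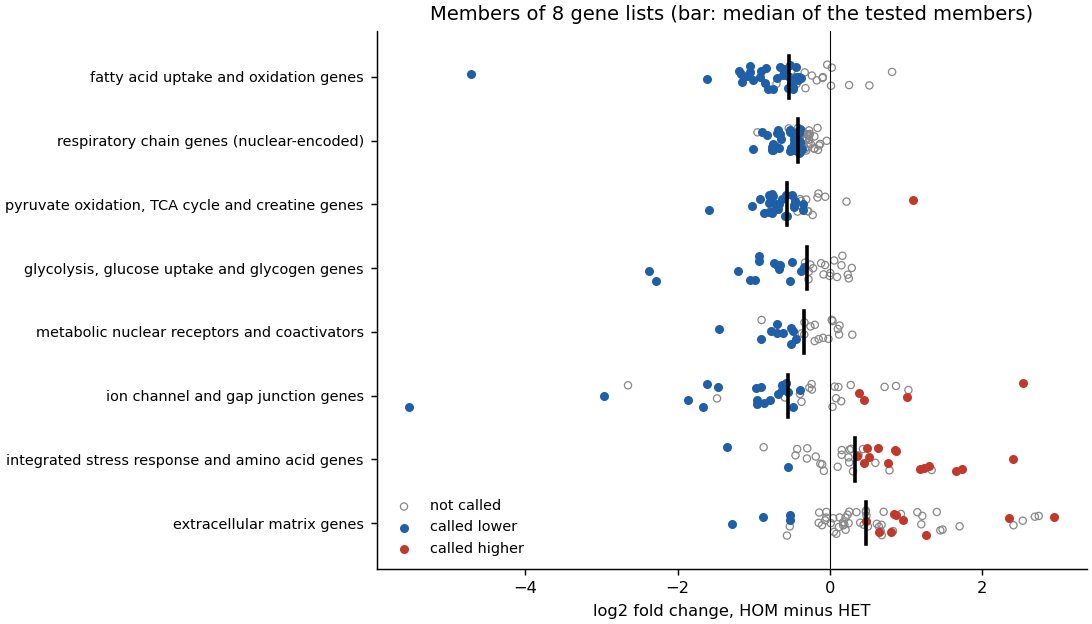
Log2 fold change, HOM minus HET, of each tested member of 8 gene lists; filled points were called, open points were not, and the black bar is the list's median. The respiratory chain members lie below 0 throughout, while the stress response and matrix lists have medians of 0.33 and 0.48.

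Ion channel genes fell widely. Of 41 channel and gap junction genes, 20 fell and 4 rose (58.5% called, median -0.55). Scn4b, a beta subunit of the cardiac sodium channel, was at 12.9, 16.6 and 14.3 CPM in HET replicates 1, 2 and 3 and 0.312, 0.0473 and 0.5697 CPM in HOM replicates 1, 2 and 3. It was nearly absent from all HOM libraries (log2 fold change -5.53 ± 0.38 SE, adjusted p = 0.000246), and WT replicate 1 held 34.8 CPM, above the HET libraries. Cacna2d1, an auxiliary subunit of the L-type calcium channel, was at 388, 377 and 400.0 CPM in HET and 184, 209.9 and 227 CPM in HOM (log2 fold change -0.91 ± 0.10 SE, adjusted p = 0.000721), while Cacna1c, the pore of that channel, was at a log2 fold change of 0.06 ± 0.08 (adjusted p = 0.654). Kcna4, a potassium channel of the transient outward current, went the other way, at 38.99, 30.8 and 33 CPM in HET and 59.3, 81.8 and 67.7 CPM in HOM (log2 fold change 1.02 ± 0.13 SE, adjusted p = 0.0015). Kcne1, a potassium channel subunit that was chosen after its values were seen as the steepest rise of the list, was at 7.96, 8.29 and 5.805 CPM in HET and 54.2, 52.1 and 21.4 CPM in HOM (log2 fold change 2.54 ± 0.39 SE, adjusted p = 0.0106). All 3 HOM libraries lay above the HET libraries in it, with HOM replicate 3 the lowest of them. The gap junction genes Gja1 and Gjc1 rose as well, by 0.45 ± 0.09 and 0.39 ± 0.11 on the log2 scale. Also chosen after the values were seen, the pacemaker channel Hcn4 was at 26.8, 20.1 and 20.7 CPM in HET and 5.12, 6.72 and 10.5 CPM in HOM (log2 fold change -1.61 ± 0.25 SE, adjusted p = 0.00508). Leaving out HET 1, 2, 3 and HOM 1, 2, 3 in that order, 12, 13, 13, 17, 12 and 23 were called lower and 3, 2, 3, 4, 2 and 7 higher.

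Of 38 calcium handling genes, 10 fell and 1 rose, 28.9% of the list against the 14.6% of all genes, with a median of -0.08. Atp2a2, the SERCA2 pump that returns calcium to the sarcoplasmic reticulum, was at 9682, 10405 and 9085 CPM in HET replicates 1, 2 and 3 and 4776, 5311 and 6902 CPM in HOM replicates 1, 2 and 3. All HOM libraries lay below all HET libraries, a 1.72-fold lower fitted level (log2 fold change -0.78 ± 0.14 SE, adjusted p = 0.0067). Its inhibitor Pln was at 4138 ± 91.01 CPM in HET and 3784 ± 565 CPM in HOM (mean ± SD, n = 3 each, adjusted p = 0.521). Ryr2, the calcium release channel, was at 4566 ± 60.4 CPM in HET and 4125 ± 149.7 CPM in HOM (mean ± SD, n = 3 each, adjusted p = 0.331), and Casq2, the calcium store protein, at 1217 ± 56.7 CPM in HET and 1280.0 ± 90.3 CPM in HOM (mean ± SD, n = 3 each, adjusted p = 0.663). Letm1, an ion exchanger of the mitochondrial inner membrane, changed by -0.73 ± 0.09 and Stim1, a sensor of calcium stores, by -0.63 ± 0.11 on the log2 scale (adjusted p = 0.00115 and 0.00477). The 1 gene that rose was Micu2, a regulator of the mitochondrial calcium uniporter (log2 fold change 0.39 ± 0.09 SE, adjusted p = 0.0164). Without each library in the same order, the calls were 1, 0, 0, 1, 0 and 4 higher and 5, 6, 7, 8, 5 and 13 lower.

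In a few genes the HET libraries stood above both HOM and WT replicate 1. Ryr1, the calcium release channel of skeletal muscle, was at 12.3, 11.5 and 3.61 CPM in HET replicates 1, 2 and 3 and 0.0312, 0.189 and 0 CPM in HOM replicates 1, 2 and 3. HOM libraries held 5 counts of it in total against 681 in HET (log2 fold change -6.97 ± 0.83 SE, adjusted p = 0.00293), HET replicate 3 was the lowest of its group, and WT replicate 1 stood at 0.262 CPM. Tnni2, the fast skeletal troponin I, was at 24, 37.1 and 28.4 CPM in HET replicates 1, 2 and 3 and 2.53, 0.521 and 4.7 CPM in HOM replicates 1, 2 and 3 (log2 fold change -3.53 ± 0.60 SE, adjusted p = 0.0181), with 0.568 CPM in WT replicate 1. Lrat, which esterifies retinol, was at 16.5, 16.4 and 17.97 CPM in HET and 0.0937, 0.331 and 1.57 CPM in HOM (log2 fold change -4.79 ± 0.65 SE, adjusted p = 0.007), with 2.27 CPM in WT replicate 1. Tmem178b, a membrane protein, was at 6.601, 6.81 and 3.498 CPM in HET and 0.687, 0.0947 and 0.475 CPM in HOM (log2 fold change -3.65 ± 0.48 SE, adjusted p = 0.0021), with 1.49 CPM in WT replicate 1. Edn3, an endothelin, was at 3.42, 1.78 and 3.05 CPM in HET and 0.0625, 0.0947 and 0.332 CPM in HOM (adjusted p = 0.00128), with 1.66 CPM in WT replicate 1. These 5 genes and Acsl6, described above, were grouped by the WT level after the values were seen, as a description with no test. In Edn3 and Acsl6, WT replicate 1 lay just under the lowest HET library and far above all HOM libraries, unlike in Ryr1 and Tnni2. Of the other genes with the lowest fold changes, Lgi1, a secreted neuronal protein, was at 2.37, 3.298 and 1.49 CPM in HET and 0.0625, 0 and 0.09496 CPM in HOM with 7.997 CPM in WT replicate 1, and Slc9a2, a sodium-proton exchanger, at 1.67, 1.82 and 2.68 CPM in HET and 0.0625, 0.0947 and 0.285 CPM in HOM with 4.76 CPM there (adjusted p = 0.000853 and 0.00146). Tnni2 was not called without HET replicate 1, 2 or 3 or HOM replicate 1 (adjusted p from 0.0548 to 0.0821) or with no filter (0.0519). Lrat was not called with A-line HET in the fit (adjusted p = 0.0954).

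**Figure D3:**
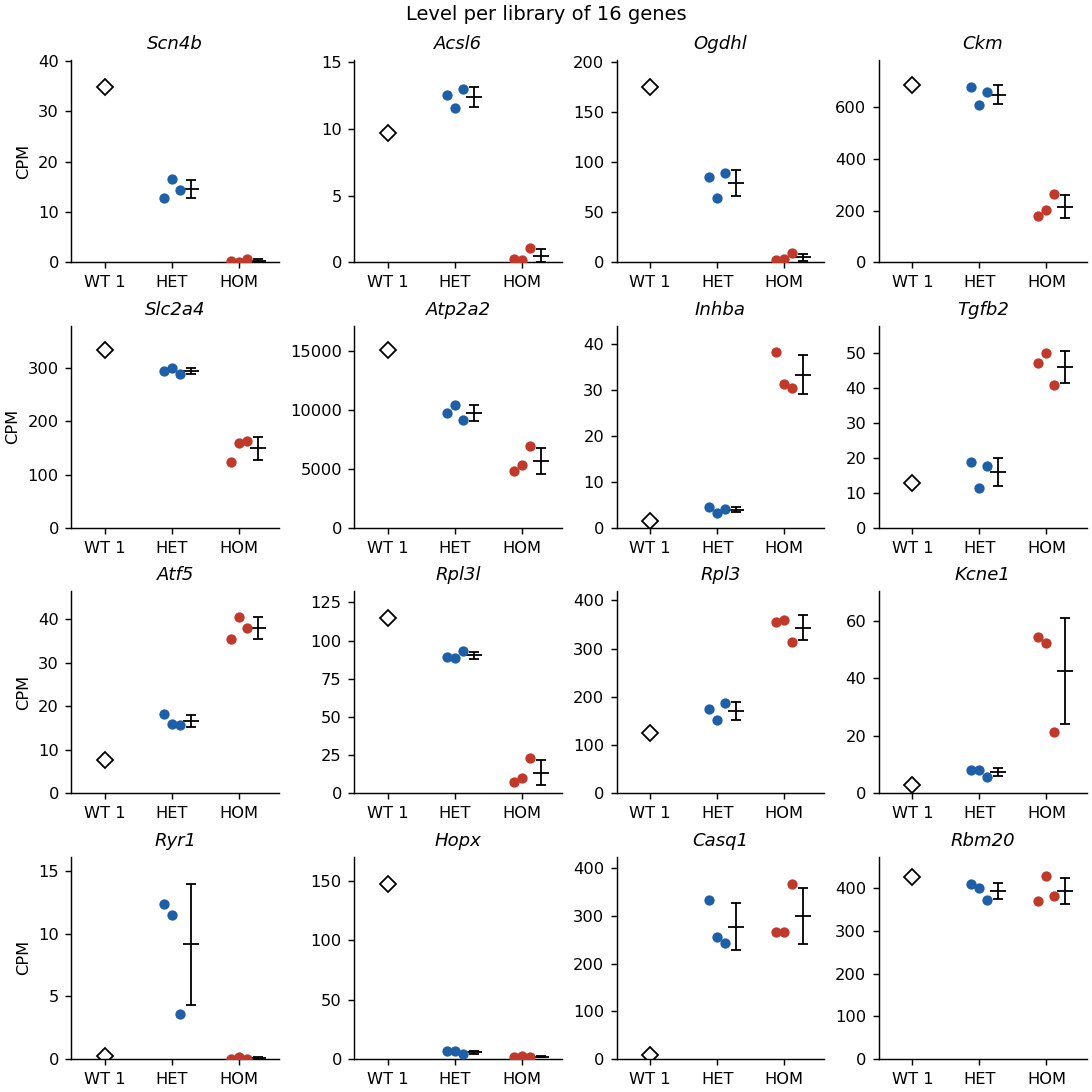
Level of 16 genes in CPM, each axis starting at 0: the open diamond is WT replicate 1 (1 library, no test), blue points are the 3 HET and red points the 3 HOM libraries, and the bar beside them is mean ± SD. Scn4b, Acsl6 and Ogdhl are near the floor in HOM, Rpl3l is lower there, Ryr1 is high in HET alone, and Casq1 and Rbm20 overlap between the groups.

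Among 41 sarcomere and Z-disc genes, 13 fell and 1 rose (34.1% called, median -0.23). Tnni3, the cardiac troponin I, was at 2316, 2022 and 2302 CPM in HET and 1024, 1273 and 1210.0 CPM in HOM (log2 fold change -0.92 ± 0.11 SE, adjusted p = 0.00122). Tcap, the titin cap protein of the Z-disc, was at 975, 688 and 894 CPM in HET and 307, 486 and 382 CPM in HOM (log2 fold change -1.12 ± 0.18 SE, adjusted p = 0.00595). Tmod4, a tropomodulin that caps thin filaments in skeletal muscle, was at 13.2, 16.7 and 13.9 CPM in HET and 2.25, 3.27 and 5.22 CPM in HOM (log2 fold change -2.05 ± 0.27 SE, adjusted p = 0.00189), and Synpo2, an actin-binding Z-disc protein, changed by -0.68 ± 0.12 on the log2 scale (adjusted p = 0.00508). None of these 4 overlapped between groups, like nearly all called genes. The 1 gene that rose was Myoz1, a Z-disc protein of fast muscle, at 0.466, 0.304 and 0.149 CPM in HET and 1.66, 0.899 and 1.19 CPM in HOM (log2 fold change 2.03 ± 0.46 SE, adjusted p = 0.0174). Myh6, the alpha myosin heavy chain of the adult mouse ventricle, was at 24442 ± 2409 CPM in HET and 16927 ± 1163 CPM in HOM (mean ± SD, n = 3 each, log2 fold change -0.53 ± 0.12 SE, adjusted p = 0.0144). Its fetal counterpart Myh7 was at 83.3, 77.6 and 94.7 CPM in HET and 125, 108 and 75.7 CPM in HOM, groups that overlapped (log2 fold change 0.27 ± 0.17 SE, adjusted p = 0.326). Reads of these near-identical genes may have been divided between them in counting. Tpm1 was at a log2 fold change of -0.21 ± 0.10 (adjusted p = 0.187), and Myh7b was too low to be tested. When HET 1, 2, 3 and HOM 1, 2, 3 were left out in that order, the calls were 1, 0, 0, 0, 1 and 5 higher and 7, 10, 10, 10, 7 and 16 lower. Tcap was not called with A-line HET in the fit (adjusted p = 0.0609). Myh6 was not called without HET replicate 1 or 3 (adjusted p from 0.0618 to 0.0686). Myh7 was called without HOM replicate 3 (adjusted p = 0.0105).

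Genes of the fetal heart program and of wall stress moved mostly upward, with 8 of 27 rising and 3 falling (40.7% called, median 0.62). Tnni1, the troponin I of the fetal heart and slow muscle, was at 0.311, 0.2603 and 0.149 CPM in HET replicates 1, 2 and 3 and 5.34, 2.65 and 1.899 CPM in HOM replicates 1, 2 and 3. It was low in absolute level, with every HOM library above every HET library (log2 fold change 3.78 ± 0.49 SE, adjusted p = 0.00146). Ankrd1, a stretch-responsive titin-binding protein, was at 5269, 3204 and 3910.0 CPM in HET replicates 1, 2 and 3 and 8058, 8659 and 6569 CPM in HOM replicates 1, 2 and 3 (log2 fold change 0.91 ± 0.18 SE, adjusted p = 0.0117), with 730.1 CPM in WT replicate 1. Nppb, the B-type natriuretic peptide, was at 398, 237 and 405 CPM in HET and 544, 724 and 594 CPM in HOM (log2 fold change 0.84 ± 0.21 SE, adjusted p = 0.035). Nppa, the atrial natriuretic peptide, was at 2401, 966 and 3023 CPM in HET and 7874, 6849 and 4722 CPM in HOM, groups that did not overlap and yet did not pass the test (log2 fold change 1.61 ± 0.45 SE, adjusted p = 0.0699), with 65.3 CPM in WT replicate 1. The LIM proteins Fhl1 and Fhl2 moved apart, Fhl1 by 1.05 ± 0.17 and Fhl2 by -0.59 ± 0.10 on the log2 scale (adjusted p = 0.00652 and 0.00491). The other genes that fell were Tnnt1, the slow skeletal troponin T, by -1.08 ± 0.23 and Ankrd2 by -2.72 ± 0.67 on the log2 scale. Uchl1, a ubiquitin hydrolase, was at 7.49, 5.47 and 6.21 CPM in HET and 15.1, 13.3 and 10.3 CPM in HOM (log2 fold change 1.01 ± 0.18 SE, adjusted p = 0.00629). Acta1, the skeletal actin, was at 661, 415 and 750.0 CPM in HET and 751, 238 and 383 CPM in HOM, with HOM replicate 2 the lowest and HOM replicate 1 the highest of all 6 libraries (adjusted p = 0.624). In the order of libraries used above, the calls were 9, 6, 5, 5, 5 and 8 higher and 1, 1, 2, 3, 1 and 3 lower. Ankrd1 was not called without HET replicate 3 or HOM replicate 1 (adjusted p from 0.0513 to 0.0539). Nppb was not called without HET replicate 1 or HOM replicate 1, 2 or 3 (adjusted p from 0.0617 to 0.0973) or with no filter (0.179). Nppa was called without HET replicate 2 (adjusted p = 0.0166) and in DESeq2 (0.00506) and with the filter at 1 CPM (0.0489) and without the robust option (0.0181).

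At the cell borders and costameres, 6 of 34 genes fell and 2 rose (23.5% called, beside the 14.6% of all genes, median -0.10). Itgb1bp2, the muscle chaperone melusin, changed by -0.80 ± 0.10, Sgca, a sarcoglycan of the dystrophin complex, by -0.71 ± 0.10, and Ank2, an ankyrin that anchors ion transporters, by -0.63 ± 0.10 on the log2 scale (adjusted p = 0.00144, 0.00191 and 0.00347). The 2 that rose were Dmd, dystrophin, and Ctnnb1, beta-catenin, by 0.38 ± 0.09 and 0.36 ± 0.09 on the log2 scale. Dsp, the desmosomal plaque protein, was at a log2 fold change of -0.09 ± 0.09, and Ctnna1 at -0.11 ± 0.10 (adjusted p = 0.545 and 0.486). Across the same omissions, 4, 4, 4, 5, 4 and 8 members were called lower and 0, 0, 0, 3, 0 and 2 higher.

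Signalling of the TGF-beta family was led by 1 gene. Inhba, which encodes the activin A subunit, a secreted ligand of this family, was at 4.58, 3.298 and 4.13 CPM in HET replicates 1, 2 and 3 and 38.2, 31.4 and 30.4 CPM in HOM replicates 1, 2 and 3. HOM libraries held 8.31 times the HET level in the fit (log2 fold change 3.06 ± 0.16 SE, adjusted p = 2.91e-05), the smallest adjusted p among the genes that the naming rule could take, and WT replicate 1 held 1.398 CPM. Of the 34 genes of the list, 7 rose and 3 fell (29.4% called, median 0.25). The ligand Tgfb2 was at 18.8, 11.5 and 17.7 CPM in HET replicates 1, 2 and 3 and 47.2, 49.9 and 40.8 CPM in HOM replicates 1, 2 and 3 (log2 fold change 1.52 ± 0.18 SE, adjusted p = 0.00123). The receptor Tgfbr1 was at 62.9, 61.4 and 68.8 CPM in HET and 120.5, 129 and 86.6 CPM in HOM (log2 fold change 0.80 ± 0.14 SE, adjusted p = 0.00618), and Skil, an inhibitor of SMAD transcription that TGF-beta itself induces, changed by 0.53 ± 0.09 on the log2 scale (adjusted p = 0.00412). The 3 that fell were the ligand Bmp7, the receptor Acvrl1 and the latency protein Ltbp1, by -1.24 ± 0.28, -0.43 ± 0.11 and -0.42 ± 0.12 on the log2 scale. The BMP receptors Bmpr1a and Bmpr2 were at a log2 fold change of 0.03 ± 0.12 and 0.14 ± 0.08 (adjusted p = 0.895 and 0.305). In the order HET 1, 2, 3, HOM 1, 2, 3 of libraries left out, the calls were 5, 5, 6, 7, 5 and 11 higher and 0, 1, 0, 3, 0 and 5 lower. Tgfb2 was not called with A-line HET in the fit (adjusted p = 0.0557).

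Matrix genes had a raised median but uneven libraries. Of 61 extracellular matrix genes, 49 had a fold change above 0, 9 rose and 4 fell (21.3% called, beside the 14.6% of all genes, median 0.48). The fibrillar collagens were not called: Col1a1 was at 147, 59.2 and 114 CPM in HET and 194, 103 and 71.9 CPM in HOM (log2 fold change 0.21 ± 0.51 SE, adjusted p = 0.832) and Col3a1 at 572, 331 and 603 CPM in HET and 822, 495 and 455 CPM in HOM (log2 fold change 0.23 ± 0.31 SE, adjusted p = 0.669). HET replicate 2 was the lowest library in both, and the groups overlapped. Postn, periostin of activated fibroblasts, was at 276, 82.7 and 195 CPM in HET and 570.4, 579 and 320.1 CPM in HOM, with no overlap and an adjusted p of 0.139. Among members that rose were the matricellular genes Ccn4, at 11.8, 12.4 and 11.5 CPM in HET and 19.2, 23.9 and 21.3 CPM in HOM (log2 fold change 0.85 ± 0.12 SE, adjusted p = 0.00193), and Ccn1, at 0.65 ± 0.12 on the log2 scale (adjusted p = 0.00738). The 4 that fell included Lama5, a basement membrane laminin, at 127, 118 and 127 CPM in HET and 54.1, 41.6 and 56.4 CPM in HOM (log2 fold change -1.29 ± 0.12 SE, adjusted p = 0.000358), and Tnxb, a tenascin, at a log2 fold change of -0.87 ± 0.09 (adjusted p = 0.00049). Nid1 and Lamb2, also of the basement membrane, changed by -0.52 ± 0.11 and -0.52 ± 0.13 on the log2 scale. Dcn and Sparc, abundant matrix genes, were at a log2 fold change of 0.50 ± 0.17 and 0.65 ± 0.20 (adjusted p = 0.081 and 0.0598). Of 32 genes that crosslink or degrade matrix, 4 rose and 3 fell (21.9% called, median 0.19), with changes among them on the log2 scale of 0.46 ± 0.12 for Plod2, 0.72 ± 0.18 for Serpine2, 0.74 ± 0.20 for Loxl2, -0.52 ± 0.12 for P4ha2, -0.66 ± 0.17 for Mmp15 and -1.75 ± 0.40 for Timp4. Leaving out libraries in the order above gave 10, 3, 8, 5, 3 and 13 higher and 3, 4, 2, 4, 2 and 4 lower among the matrix genes. The crosslinking list gave 1, 0, 2, 3, 0 and 10 higher and 0, 0, 2, 1, 2 and 3 lower. DESeq2 with all libraries called 18 matrix genes higher and 4 lower. Postn was called in DESeq2 (adjusted p = 0.0315) and without the robust option (0.0368). Sparc was called in DESeq2 (adjusted p = 0.00436), with A-line HET in the fit (0.0357) and without the robust option (0.0473). It was also called without HET replicate 1 (0.0195) or HOM replicate 3 (0.0147). Dcn was called in DESeq2 (adjusted p = 0.0244) and without HET replicate 3 (0.0139). Both were called with the replicate block (0.00733 and 0.0256). P4ha2, Plod2 and Mmp15 were each not called without HET replicate 1 or 2, and some of them without HET replicate 3 or HOM replicate 1 or 2 (adjusted p from 0.057 to 0.114), and Mmp15 also with A-line HET in the fit (adjusted p = 0.0711).

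Fibroblast markers were read beside these genes. Of 15 activated fibroblast markers tested, all had a fold change above 0 (median 1.20) and 1, Ccn4, was called, and their summed level was 234 to 668 CPM in HET and 773 to 1724 CPM in HOM. Of 16 markers of fibroblasts at large, 0 rose and 1, Scara5, fell (6.25% called), with a median of 0.22 and sums of 2956 to 4988 CPM in HET and 4062 to 5247 CPM in HOM. Leaving out HET 1, 2, 3 and HOM 1, 2, 3 in that order gave 0, 0, 0, 0, 1 and 1 of these 16 markers lower and 0, 0, 3, 0, 0 and 2 higher. Of the activated fibroblast markers, 1, 1, 2, 1, 1 and 3 were called higher, and 5 in DESeq2 with no library left out. Their part in the matrix results was not tested.

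Adrenergic, cyclic AMP and hypertrophy signalling had 14 of 44 genes lower and 5 higher (43.2% called, median -0.15). Rgs2, which ends signalling by Gq-coupled receptors, was at 32.1, 31.6 and 29.2 CPM in HET replicates 1, 2 and 3 and 10.5, 10.8 and 8.83 CPM in HOM replicates 1, 2 and 3. The groups were far apart (log2 fold change -1.62 ± 0.12 SE, adjusted p = 0.000222). Grk5, a kinase that desensitises receptors, was at 79.3, 78.3 and 71.8 CPM in HET and 153, 150.0 and 129 CPM in HOM (log2 fold change 0.91 ± 0.10 SE, adjusted p = 0.000606). Pde4b, a cyclic AMP phosphodiesterase, was at 33.7, 33.3 and 30.1 CPM in HET and 48.8, 62.5 and 50.1 CPM in HOM (log2 fold change 0.73 ± 0.11 SE, adjusted p = 0.00298). Adcy1, an adenylyl cyclase among the 10 smallest adjusted p-values that the rule took, was at 13.01, 12.2 and 11.2 CPM in HET and 2.53, 3.03 and 3.37 CPM in HOM (log2 fold change -2.04 ± 0.17 SE, adjusted p = 0.000274). Edn3 fell as given above, whereas Edn1, endothelin-1 and a growth signal for cardiomyocytes, was at 4.43, 2.52 and 3.65 CPM in HET and 8.12, 9.42 and 6.65 CPM in HOM (log2 fold change 1.19 ± 0.23 SE, adjusted p = 0.00841) and was named after its values were seen. Npr3, the clearance receptor of natriuretic peptides, and Ednrb, an endothelin receptor, rose by 0.78 ± 0.15 and 0.43 ± 0.13 on the log2 scale. Prkar1a was at a log2 fold change of 0.34 ± 0.14 and Rgs5 at -0.37 ± 0.13 (adjusted p = 0.138 and 0.0825). With libraries left out in the order HET 1, 2, 3, HOM 1, 2, 3, 7, 9, 9, 14, 7 and 17 were called lower and 5, 4, 4, 4, 4 and 7 higher.

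The integrated stress response, in which phosphorylated eIF2 slows translation and ATF4 switches on amino acid supply, rose in 14 of 38 genes and fell in 2 (42.1% called, median 0.33). Atf5, a transcription factor of this response, was at 18.3, 16.01 and 15.8 CPM in HET replicates 1, 2 and 3 and 35.4, 40.6 and 38.1 CPM in HOM replicates 1, 2 and 3 (log2 fold change 1.19 ± 0.11 SE, adjusted p = 0.000333), with 7.73 CPM in WT replicate 1. Ppp1r15a, which restores translation, was at 14.9, 12.7 and 11.8 CPM in HET and 27.8, 23.9 and 20.1 CPM in HOM (log2 fold change 0.87 ± 0.15 SE, adjusted p = 0.00462). Psat1, an enzyme of serine synthesis, was at 3.61, 3.08 and 4.28 CPM in HET and 6.78, 7.904 and 12.7 CPM in HOM (log2 fold change 1.31 ± 0.25 SE, adjusted p = 0.00843), and Nars, the asparaginyl-tRNA synthetase, changed by 0.44 ± 0.08 on the log2 scale (adjusted p = 0.00668). The 2 that fell were Gpt2, an aminotransferase, and the transcription factor Cebpb, by -1.35 ± 0.32 and -0.55 ± 0.16 on the log2 scale. Sars was at a log2 fold change of 0.31 ± 0.10 and Vldlr at -0.12 ± 0.09 (adjusted p = 0.0581 and 0.421). Without each library in the order given, the calls were 10, 7, 7, 14, 8 and 17 higher and 0, 1, 0, 0, 0 and 2 lower. Atf5 was not called with A-line HET in the fit (adjusted p = 0.0582). Psat1 was not called with A-line HET in the fit (adjusted p = 0.0869).

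Other stress lists had shares called in either direction close to the 14.6% of all genes, but their calls went mostly 1 way. Immediate-early genes had 15.6% higher and heat shock genes 15.6% lower, beside 5.79% higher and 8.84% lower among all genes. Fold changes were above 0 in 23 of 28 ER, 20 of 32 immediate-early and 39 of 46 interferon genes. They were below 0 in 27 of 32 heat shock genes. Of 28 ER chaperone and unfolded protein genes, 3 rose and 1 fell (median 0.17), 14.3% of the list, and Txndc5, a protein disulfide isomerase, changed by 0.49 ± 0.09 on the log2 scale (adjusted p = 0.00758). The ER kinase gene Eif2ak3 and Xbp1 rose by 0.51 ± 0.12 and 0.35 ± 0.09, and Herpud1 changed by -0.90 ± 0.22 on the log2 scale. Of 32 heat shock and protein quality control genes, 0 rose and 5 fell (median -0.26), 15.6% of the list. Dnajb5 was at 66.1, 55.9 and 65.4 CPM in HET and 31.4, 33.7 and 42.1 CPM in HOM (log2 fold change -0.81 ± 0.12 SE, adjusted p = 0.00286), Fkbp4, a cochaperone of Hsp90, at a log2 fold change of -0.99 ± 0.15 and Hspb6, a small heat shock protein of muscle, at -0.70 ± 0.12 (adjusted p = 0.0038 and 0.0041). Ahsa1 and Hsf1, the heat shock transcription factor, were the other 2, at a log2 fold change of -0.38 ± 0.11 and -0.37 ± 0.11. Hspa8 was at a log2 fold change of -0.05 ± 0.12 (adjusted p = 0.814). Of 32 immediate-early genes 5 rose and 0 fell (median 0.19), 15.6% of the list, among them Fosl2, an AP-1 subunit, at 45.04, 43 and 44.5 CPM in HET and 67.4, 70.4 and 59.4 CPM in HOM (log2 fold change 0.57 ± 0.09 SE, adjusted p = 0.00352), and the growth-arrest gene Btg1 at a log2 fold change of 0.73 ± 0.11 (adjusted p = 0.00242). The others were Ccn1, Myc at a log2 fold change of 1.24 ± 0.28 and Zfp36l1 at 0.41 ± 0.10. Of 46 interferon response genes 6 rose and 1 fell (median 0.21), 15.2% of the list. Among them were Ifit2, at 29.5, 29.5 and 24.97 CPM in HET and 50.2, 60.7 and 47.4 CPM in HOM (log2 fold change 0.91 ± 0.12 SE, adjusted p = 0.00141), and its near relative Ifit3, at a log2 fold change of 0.96 ± 0.14 (adjusted p = 0.00216). The 1 that fell was Iigp1, at a log2 fold change of -0.55 ± 0.16. When single libraries were omitted as before, 1, 1, 1, 2, 1 and 4 ER genes, 6, 3, 3, 5, 3 and 10 immediate-early genes and 3, 3, 3, 6, 2 and 16 interferon genes were called higher, and 3, 3, 3, 3, 3 and 12 heat shock genes lower. The interferon list had 0, 0, 0, 1, 0 and 1 called lower. Ahsa1 and Myc did not keep their calls in all of these fits (highest adjusted p = 0.162 and 0.0681). The 1 lower call of the ER list, Herpud1, was kept without HOM replicate 1 or 3 and lost without each other library, and Eif2ak3 and Xbp1 lost theirs without those same libraries, Xbp1 also without HOM replicate 1 (highest adjusted p = 0.107, 0.0803 and 0.134).

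Total levels of known RBM20 splicing targets gave few calls: 3 of 34 rose and 3 fell (median -0.08), 17.6% against the 14.6% of all genes. Rtn4, a membrane-shaping reticulon, was at 138, 106 and 127 CPM in HET replicates 1, 2 and 3 and 289, 268 and 258 CPM in HOM replicates 1, 2 and 3 (log2 fold change 1.14 ± 0.11 SE, adjusted p = 0.000404). Enah, an actin regulator of the intercalated disc, was at 232, 179 and 194 CPM in HET and 386, 364 and 379 CPM in HOM (log2 fold change 0.90 ± 0.11 SE, adjusted p = 0.0011). Lrrfip1 changed by 0.53 ± 0.10 and Kcnip2, a subunit of the transient outward potassium channel, by -0.79 ± 0.17 on the log2 scale (adjusted p = 0.00907 and 0.0161). Fhod3, a formin, fell with Kcnip2, changing by -0.36 ± 0.08 on the log2 scale. Of 33 muscle splicing regulators, 3 rose and 4 fell (21.2% called, median 0.06). Ptbp2, a repressor of exon inclusion, was at 30.9, 27.99 and 29.7 CPM in HET and 48.2, 50.2 and 47.3 CPM in HOM (log2 fold change 0.72 ± 0.09 SE, adjusted p = 0.00115), Khdrbs3 changed by -0.59 ± 0.10 and Srsf5 by 0.50 ± 0.10 on the log2 scale (adjusted p = 0.0056 and 0.00847). Srsf2, Rbpms2, Rbfox1 and Rbm24 changed by 0.34 ± 0.08, -0.59 ± 0.12, -1.07 ± 0.23 and -0.32 ± 0.09 on the log2 scale. Of 32 stress granule and P-body genes 2 rose and 1 fell (median -0.04), 9.38% of the list, with Fmr1 at a log2 fold change of 0.54 ± 0.09 (adjusted p = 0.00495), Tnrc6a at 0.36 ± 0.08 and Eif4g1 at -0.38 ± 0.10. Under omission of single libraries in that order, the targets had 3, 2, 3, 3, 3 and 4 called higher and 0, 1, 1, 3, 0 and 4 lower. The granule list had 2, 1, 1, 2, 1 and 2 higher and 0, 0, 1, 1, 0 and 1 lower, with Tnrc6a and Eif4g1 at adjusted p-values of up to 0.0812 and 0.111. The regulators had 2, 2, 2, 4, 2 and 3 called higher and 2, 2, 2, 3, 1 and 6 lower, with Rbpms2 at adjusted p-values of up to 0.0535. Enah was not called with A-line HET in the fit (adjusted p = 0.0529). Lrrfip1 was not called without HET replicate 2 (adjusted p = 0.0529). Kcnip2 was not called without HET replicate 1, 2 or 3 or HOM replicate 2 (adjusted p from 0.0525 to 0.0755) or with A-line HET in the fit (0.0742).

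A ribosomal protein and its muscle paralog moved in opposite directions. Rpl3, a protein of the large ribosomal subunit found in most tissues, was at 175, 151 and 188 CPM in HET replicates 1, 2 and 3 and 356, 360.2 and 315 CPM in HOM replicates 1, 2 and 3 (log2 fold change 1.004 ± 0.11 SE, adjusted p = 0.000637). Rpl3l, which takes its place in adult heart and skeletal muscle and was chosen after its values were seen, was at 89.4, 88.8 and 93.02 CPM in HET replicates 1, 2 and 3 and 7.69, 10.3 and 23.03 CPM in HOM replicates 1, 2 and 3 (log2 fold change -2.74 ± 0.42 SE, adjusted p = 0.0126). Neither gene overlapped between groups, HOM replicate 3 held the most Rpl3l and the least Rpl3 of the HOM libraries, and WT replicate 1 held 125 CPM of Rpl3 and 115 CPM of Rpl3l. How the authors' counting divided reads between these related genes is not stated. Of 49 cytosolic ribosomal protein genes 6 rose and 1, Rps2, fell (median 0.10), a share of 14.3% beside the 14.6% of all genes. Left out in turn, the libraries gave 1, 1, 2, 10, 1 and 3 higher and 0, 0, 1, 1, 0 and 1 lower, with Rps2 at adjusted p-values of up to 0.0788.

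Cardiac transcription factors changed in 5 of 33 genes, 3 higher and 2 lower (median 0.10), a share of 15.2% beside the 14.6% of all genes. Hopx, a homeodomain-only cofactor of the heart, was at 6.48, 6.29 and 4.09 CPM in HET replicates 1, 2 and 3 and 1.28, 2.13 and 1.99 CPM in HOM replicates 1, 2 and 3 (log2 fold change -1.66 ± 0.27 SE, adjusted p = 0.00396). Both groups lay far under the 148 CPM of WT replicate 1, and reads of its antisense partner may be included. Vgll3, a cofactor of TEAD factors, was at 9.32, 7.38 and 8.82 CPM in HET and 22.2, 17.4 and 13.8 CPM in HOM (log2 fold change 1.07 ± 0.18 SE, adjusted p = 0.00488). Vgll2 and Prox1 rose by 2.29 ± 0.58 and 0.36 ± 0.08, and Nfatc2 changed by -0.63 ± 0.13 on the log2 scale. Tbx20 was at a log2 fold change of 0.52 ± 0.16 (adjusted p = 0.0518) and Myocd at -0.10 ± 0.09 (adjusted p = 0.476). In the same order of omissions, 2, 1, 1, 2, 2 and 8 factors were called higher and 2, 2, 2, 3, 1 and 2 lower. Prox1 and Nfatc2 did not keep their calls in all of these fits (highest adjusted p = 0.0742 and 0.0531).

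**Figure D4:**
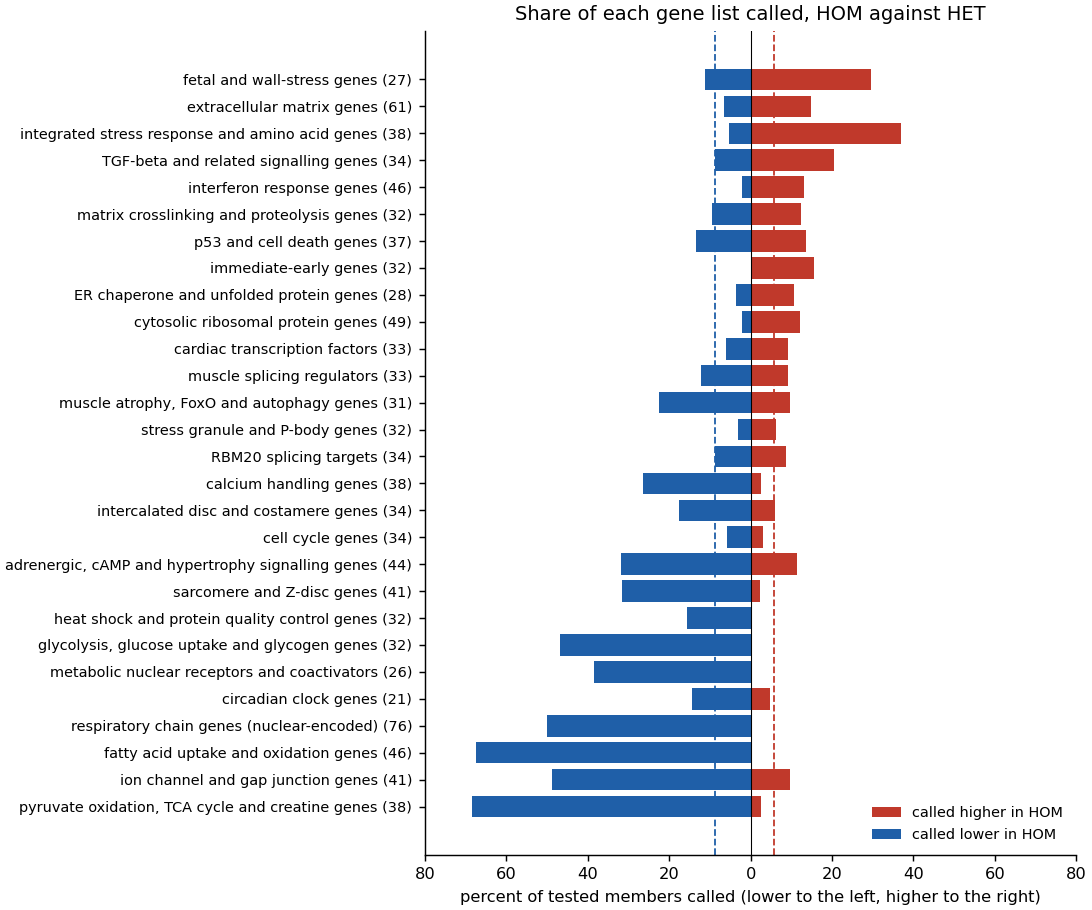
Percent of the tested members of each of 28 gene lists that were called higher (red, right) or lower (blue, left) in HOM, ordered by the median log2 fold change; the number tested is in brackets. The dashed lines are the shares of all genes, 5.79% higher and 8.84% lower, and the energy lists reach past 40% on the lower side except the receptor list at 38.5%.

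Further genes were named by the size of their change. Of those with the highest fold changes, most were low in absolute level. Chodl, a membrane lectin, was at 0.0388, 0 and 0.372 CPM in HET and 8.75, 3.27 and 4.08 CPM in HOM (log2 fold change 5.19 ± 0.78 SE, adjusted p = 0.0064), with 0 CPM in WT replicate 1. Ptprt, a receptor phosphatase, was at 0.233, 0.174 and 0.186 CPM in HET and 1.91, 1.51 and 2.28 CPM in HOM (log2 fold change 3.23 ± 0.38 SE, adjusted p = 0.000988), and Nts, the neurotensin precursor, at 0.311, 0.1302 and 0.298 CPM in HET and 3.84, 1.75 and 1.14 CPM in HOM (log2 fold change 3.17 ± 0.54 SE, adjusted p = 0.00539). Ptx4, a pentraxin, was at 0.155, 0.217 and 0.409 CPM in HET and 3.25, 3.64 and 0.9496 CPM in HOM (adjusted p = 0.00621). Ildr2 was at 1.83, 1.302 and 1.302 CPM in HET and 20.5, 11.03 and 4.99 CPM in HOM, Tnmd, a tendon glycoprotein, at 0.194, 0 and 0.633 CPM in HET and 4.09, 2.698 and 2.47 CPM in HOM, and Grin2a, a glutamate receptor subunit, at 0.6601, 0.0868 and 1.53 CPM in HET and 8.41, 6.82 and 4.32 CPM in HOM. Ecrg4 was at 0.272, 0.0434 and 0.335 CPM in HET and 5.56, 2.32 and 0.617 CPM in HOM (adjusted p = 0.0366). HOM replicate 1 was the highest library in all but Ptprt and Ptx4 of the 10 genes with the highest fold changes that the rule took, Tnni1 and Inhba included. Ildr2, Tnmd, Grin2a and Ecrg4 were each not called without HET replicate 1, and some of them without HET replicate 2 or 3 or HOM replicate 1 or 2 (adjusted p from 0.0563 to 0.129). Ildr2, Grin2a and Ecrg4 were also not called with no filter (adjusted p = 0.071, 0.115 and 0.164), nor were Tnmd, Grin2a and Ecrg4 with A-line HET in the fit (0.0546, 0.0725 and 0.109).

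The genes with the smallest adjusted p were mostly falls in well-measured genes. Slc41a1, a magnesium transporter, was at 70.3, 67.7 and 68.3 CPM in HET replicates 1, 2 and 3 and 25.9, 25.8 and 27.9 CPM in HOM replicates 1, 2 and 3 (log2 fold change -1.37 ± 0.08 SE, adjusted p = 9.18e-05). Slc25a34, a mitochondrial carrier, was at 126, 107 and 123 CPM in HET and 42.9, 38.9 and 48.3 CPM in HOM (log2 fold change -1.45 ± 0.11 SE, adjusted p = 0.000232). Ak1, the muscle adenylate kinase that balances ATP, ADP and AMP, was at 450.2, 385 and 421 CPM in HET and 151, 182 and 168 CPM in HOM (log2 fold change -1.33 ± 0.10 SE, adjusted p = 0.000252). Alas1, the first enzyme of heme synthesis, was at 256, 214 and 236 CPM in HET and 88.7, 106 and 99.4 CPM in HOM (log2 fold change -1.27 ± 0.10 SE, adjusted p = 0.000274). Fam131a changed by -2.43 ± 0.15, and Tox3, a transcription factor, rose by 1.23 ± 0.10 on the log2 scale (adjusted p = 9.18e-05 and 0.000274).

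HOM replicate 1 stood apart from the other 5 libraries in several sets of genes. Arntl, which encodes the clock activator BMAL1, was at 1.48, 1.17 and 1.75 CPM in HET replicates 1, 2 and 3 and 24.6, 5.301 and 2.42 CPM in HOM replicates 1, 2 and 3, and Per2, which the clock complex drives in the opposite phase, at 42.6, 39.8 and 41.1 CPM in HET replicates 1, 2 and 3 and 12.3, 27.5 and 30.4 CPM in HOM replicates 1, 2 and 3. Dbp, a clock output gene, was at 18.99, 19.7 and 20.4 CPM in HET and 10.2, 18.6 and 15.9 CPM in HOM. Of 21 circadian clock genes 1 rose and 3 fell (19% called, beside the 14.6% of all genes, median -0.39). Among them, Per1, Cry2 and Clock changed by -0.45 ± 0.12, -0.64 ± 0.17 and 0.45 ± 0.13 on the log2 scale. Another set was atrial, and the atrial light chain Myl7 was at 0.349, 0.2603 and 0.112 CPM in HET replicates 1, 2 and 3 and 45.7, 1.37 and 3.47 CPM in HOM replicates 1, 2 and 3 (log2 fold change 6.14 ± 1.99 SE, adjusted p = 0.118). In Arntl, Per2, Dbp and Myl7, HOM replicates 2 and 3 also lay outside the HET range, on the same side as HOM replicate 1. The groups did not overlap in 35.8% of all genes tested. The summed atrial markers reached 1086 to 3151 CPM in HET and 4817 to 8133 CPM in HOM, of which Nppa made up most. Of 8 atrial markers tested, 0 were called higher and 2 lower (25%), with 4 fold changes above 0 and 4 below. Mesothelial and epicardial markers summed to 47.9 CPM in HOM replicate 1 and to 8.98 to 13.6 CPM in the other libraries. The mesothelial gene Upk3b was at 3.31 CPM in that library and at 0 to 0.217 CPM in the others, and Adipoq, a hormone of fat cells, at 3.16 CPM against 0 to 0.142 CPM. The part of these cells in the results was not tested. Without HOM replicate 1, 1965 genes were called, of which 780 were higher, and Atp2a2, Ckm, Scn4b, Inhba, Tgfb2 and Rpl3 kept their calls. Arntl was called without HOM replicate 1 (adjusted p = 0.0335) and in DESeq2 (0.0165) and without the robust option (0.0304). Myl7 was called without HOM replicate 1 (adjusted p = 0.00565) and in DESeq2 (0.000258) and without the robust option (0.0206). Per1, Cry2 and Clock were each not called without any 1 HET library or HOM replicate 1, and Cry2 and Clock also without HOM replicate 2 (adjusted p from 0.0513 to 0.143). Over the omissions in the order above, the clock list had 0, 0, 0, 1, 0 and 3 higher and 2, 1, 1, 3, 2 and 5 lower. With A-line HET in the fit the adjusted p of Per1, Cry2 and Clock was 0.653, 0.226 and 0.173.

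**Figure D5:**
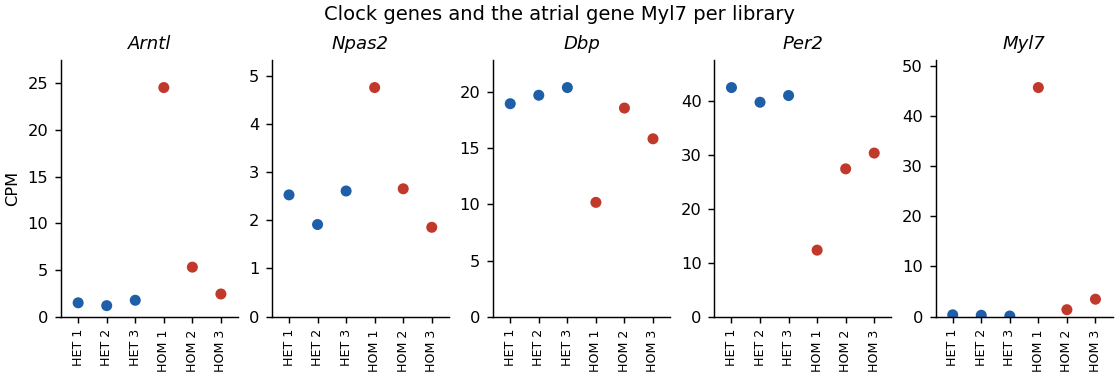
Level in CPM of the clock genes Arntl, Npas2, Dbp and Per2 and of the atrial gene Myl7 in each of the 6 libraries, blue for HET and red for HOM, axes starting at 0. HOM replicate 1 is the highest library in Arntl, Npas2 and Myl7 and the lowest in Dbp and Per2.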

How the data were processed

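Left ventricular total RNA was sequenced from TruSeq Total RNA Gold libraries, per the labels' protocols. The submitters' processing notes name bcl2fastq 2.20.0.422, Trimmomatic 0.39, STAR 2.7.4a and the mm39 (GRCm39) build. The authors deposited raw read counts per gene symbol, all whole numbers, and they were taken unchanged. Which counter, gene models and strand setting made them is not stated in the labels, so reads of antisense partners, overlapping genes and near-identical copies may be mixed.

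Groups came from the sample titles. The 3 G-line HET and 3 G-line HOM libraries (20324529 to 29436407 counts) were fitted alone in edgeR 4.0.16 (R 4.3.3): expression filter with a minimum count of 10, TMM scaling, a mean per group, robust quasi-likelihood F test, two-sided, with 4 residual degrees of freedom and a common biological variation of 15.5%. P-values were adjusted by Benjamini-Hochberg over all 16615 genes tested, and adjusted p in the text refers to this test unless DESeq2 is named. The standard error is the log2 fold change divided by the square root of F. CPM values were computed here with TMM-scaled library sizes, and WT replicate 1, a WT column that stands in the tables under 1 name only, was scaled the same way and not tested. Counting error alone limits genes with few counts.

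Gene lists were described by their counts called and their median, with no list test. The gene lists, the members and the naming rule were chosen with earlier results of these data known. The rule took, among called genes with a mean of at least 1 CPM and groups that did not overlap, the 10 highest and 10 lowest log2 fold changes and the 10 smallest adjusted p, without predicted or clone-named and sex-linked genes. It added up to 4 called members and up to 2 abundant members not called of each list, and a set of remodelling genes. The fit was also run on counts simulated from the levels and common variation of these libraries, in which known genes had been changed. Alternatives were DESeq2 1.42.0, RLE size factors, other filters, a replicate block, A-line HET in the fit, omission of mitochondrial, ribosomal RNA and sex-linked genes, no robust option, and each library left out. Some genes are not reported here.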

Additional observations from a re-analysis of the deposited data

How the results depend on the processing

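The number of genes called was 2431, and 1951 to 2918 under the other settings that kept all 6 libraries, with DESeq2 giving 2918 and A-line HET in the fit 1951. Leaving out 1 library at a time moved it between 1056 and 3458, the genes called higher between 348 and 1485 and those called lower between 698 and 1973. With HET replicate 2 left out, 29.5% of the calls were higher, against 39.6% with all libraries. The fit without mitochondrial, ribosomal RNA and sex-linked genes called 2448 genes, 2389 of them among the 2431. In it, 0 of the called genes that the rule took lost their call, and 2 of those not called gained one. The replicate numbers did not pair the samples: deviations of same-numbered libraries correlated at 0.15, -0.087 and -0.0054, and not every library correlated best with its own number. The fit with the replicate block called 2482 genes, 915 higher and 1567 lower, and 2145 of the 2431 genes remained called. Of the called genes that the rule took, 6 lost their call with the block, among them Tnni2 and Grin2a (adjusted p = 0.11 and 0.0978). Of the 133 called genes among the 197 tested genes that the rule took, 96 kept their call without each library and 37 lost it without at least 1, and none changed sign. DESeq2 called 15 of the 64 genes not called. A sign change occurred in 11 of these 64, all close to 0 or split among libraries.

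Without single libraries the log2 fold changes of these genes ran from -0.044 to 0.043 for Ctsd, from -0.067 to 0.11 for Camk2d, from -0.063 to 0.050 for Rbm20, from -0.28 to 0.51 for Col1a1, from -0.056 to 0.24 for Tgm2, from -0.14 to 0.065 for Hspa8, from -0.27 to 0.22 for Nr1d2, from -0.069 to 0.39 for Col3a1, from -0.096 to 0.15 for Bmpr1a, from -0.081 to 0.053 for Perp and from -0.061 to 0.26 for Casq1. Ctsd was at -0.010 with no filter. Camk2d was at -0.011 with no filter and -0.0024 with the replicate block. Rbm20 was at 0.0051 with the filter at 1 CPM, 0.0053 with A-line HET in the fit and 0.0045 with mitochondrial, rRNA and sex-linked genes left out. The causes were not tested.

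Depth limits the genes named near 0 counts: a group at 5 counts or fewer in total, such as HOM for Ryr1 and Lgi1, has a fold change of low precision, while its direction held in every setting run.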

Other observations

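Genes of cell death, autophagy and the cell cycle were also measured. Among 37 genes of p53 and cell death, 5 rose and 5 fell (27% called, median 0.19), and members of the BCL2 family moved in both directions: Bcl2, which blocks cell death, was at 41.3, 33.4 and 36.4 CPM in HET and 53.8, 66.97 and 52.9 CPM in HOM (log2 fold change 0.64 ± 0.12 SE, adjusted p = 0.0071), while Bcl2l1, which also blocks it, was at 49, 51.1 and 47.2 CPM in HET and 33.9, 33.1 and 26.3 CPM in HOM (log2 fold change -0.66 ± 0.11 SE, adjusted p = 0.00466) and Bak1, which promotes it, at -0.69 ± 0.13 on the log2 scale (adjusted p = 0.00762). Phlda3, Bcl2l11, Tnfrsf10b and Apaf1 also rose, and Ei24, Ccng1 and Fas also fell. Mcl1 was at a log2 fold change of 0.20 ± 0.11 (adjusted p = 0.234). Of 31 atrophy, FoxO and autophagy genes 7 fell and 3, Gabarapl1, Ctsl and Fbxo30, rose (32.3% called, median -0.02), with the autophagy kinase Ulk1 at 68.7, 67.3 and 48.6 CPM in HET and 36.4, 33.6 and 39.5 CPM in HOM (log2 fold change -0.75 ± 0.14 SE, adjusted p = 0.00665) and the autophagosome protein Map1lc3a at a log2 fold change of -0.57 ± 0.10 (adjusted p = 0.00629). Of 34 cell cycle genes 1, Cdkn2b, rose and 2 fell (8.82% called, below the 14.6% of all genes, median -0.11): Cenpf, a kinetochore protein, was at 10.3, 9.72 and 11.4 CPM in HET and 4.94, 2.79 and 4.37 CPM in HOM (log2 fold change -1.36 ± 0.21 SE, adjusted p = 0.00285), and Cdkn1c, a cell cycle inhibitor, at 10.2, 8.72 and 6.66 CPM in HET and 3.06, 2.65 and 4.46 CPM in HOM (log2 fold change -1.33 ± 0.24 SE, adjusted p = 0.00583). Cdkn2b had 15 counts in total in HET and 67 in HOM. When HET 1, 2, 3 and HOM 1, 2, 3 were omitted in that order, 4, 3, 3, 3, 3 and 6 cell death genes were called higher and 2, 2, 3, 4, 2 and 6 lower, and 5, 4, 5, 5, 4 and 7 atrophy genes lower. The atrophy list had 1, 0, 2, 2, 0 and 6 called higher. The cell cycle list had 1, 0, 0, 1, 0 and 2 called higher and 2, 2, 2, 2, 2 and 3 lower. Gabarapl1 and Cdkn2b did not keep their calls in all of these fits (highest adjusted p = 0.0643 and 0.0681).

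Markers of other cell types are given by their counts, beside the 14.6% called among all genes. Of 21 macrophage markers 2 rose and 0 fell (median -0.02), with summed levels of 388 to 456 CPM in HET and 317 to 477 CPM in HOM that overlapped. The 2 were Lgals3, at 1.48, 0.868 and 2.12 CPM in HET and 6.56, 8.95 and 5.32 CPM in HOM (log2 fold change 2.205 ± 0.32 SE, adjusted p = 0.00231), and Cx3cr1, at 2.41, 1.78 and 2.12 CPM in HET and 12.2, 9.37 and 5.08 CPM in HOM (log2 fold change 2.08 ± 0.31 SE, adjusted p = 0.00315). Of 18 endothelial markers 2, Npr3 and Cldn5, rose and 1, Rgcc, fell (median 0.22), and of 15 smooth muscle and pericyte markers 0 rose and 2, Smtn and Vtn, fell (median -0.01). Of 13 Schwann and neuronal markers 4, Uchl1, Prnp, Ncam1 and Tubb3, rose and 0 fell (30.8%, median -0.03), of 11 conduction system markers 1, Kcne1, rose and 2, Hcn4 among them, fell (27.3%, median 0.15), and of 10 skeletal muscle markers 0 rose and 3, Ckm, Eno3 and Tnni2, fell (30%, median -0.35). Lymphocyte markers had 2 of 5 tested members called higher, Cd79b among them, and neutrophil and mast cell markers 3 of 4, Csf3r, Cma1 and S100a9, 40% and 75% of these short lists, at summed levels of 16.7 CPM or less. Neither list had a call without HET replicate 1, 2 or 3 or HOM replicate 1 or 2. Of 4 fat cell markers 1, Pnpla3, fell, and no erythroid, platelet or mesothelial marker was called among 9, 5 and 3 tested. All 9 erythroid genes had a fold change above 0 (median 0.68). Their summed level was 443 to 645 CPM in HET and 1061, 1145 and 283 CPM in HOM replicates 1, 2 and 3. Without HOM replicate 3, 8 erythroid and 3 mesothelial markers were called higher, and without each other library 0 were. DESeq2 with all libraries called 2 and 1 higher. Without HET 1, 2, 3 and HOM 1, 2, 3 in that order, the fat cell list had 0, 1, 0, 1, 0 and 0 called lower. The endothelial list had 1, 1, 1, 1, 1 and 5 called higher.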
